A study of Mus musculus with 4 samples.

Results

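Sst and Npy interneuron-like cells were 75 of the 2283 GABAergic neurons, and of the 4239 kept cell barcodes, in Drop-seq libraries of the mouse bed nucleus of the stria terminalis (BNST). They were chosen by transcript counts. Kept barcodes had 400 or more detected genes, and mitochondrial genes held no more than 10% of their unique molecular identifiers (UMIs, each one counted transcript molecule). It counted as a neuron when Snap25, Syt1, Stmn2, Snhg11 and Meg3 together held at least 0.6% of its UMIs, and as GABAergic with at least 1 UMI of Gad1, Gad2 or Slc32a1. Among these, the 75 selected cells had at least 4 UMIs of Sst and Npy together and at least 1 UMI of Igfbp4, Crhbp or Maf. The levels of all these genes therefore describe the selection and were not tested, and neither was Cox6a2, which had been listed as a marker of the same cells.

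The 4 libraries came from BNST tissue punches of male, wildtype C57BL/6J mice, each library from the pooled tissue of 6 mice. No group was treated and no transgene was used, so every comparison was between kinds of cells within a library, with the 4 libraries as replicates. Single mice could not be told apart within a pool.

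Somatostatin (Sst) and neuropeptide Y (Npy) are secreted peptides that many inhibitory interneurons of the forebrain release beside GABA. Interneurons with these peptides largely arise in the medial ganglionic eminence of the embryo, where Nkx2-1 acts upstream of Lhx6 and Sox6. A subset of them also holds Nos1, the neuronal nitric oxide synthase, and in cortex and striatum such cells are known as sparse neurons with long axons. The BNST itself consists mainly of GABAergic projection neurons, whose factors and peptides differ.

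The 250 bases before the annotated start of 3 peptide genes are shown because Sst and Npy chose the cells and Cort, which encodes the Sst-related peptide cortistatin, had the largest fitted rise in them. Sequences are those of RefSeq on GRCm38.p6, read 5′ to 3′ on the gene's strand, at chr16:23890845-23891094 (minus strand) for Sst, chr6:49822460-49822709 (plus strand) for Npy and chr4:149126764-149127013 (minus strand) for Cort. Capitals mark the cyclic AMP response element TGACGTCA or its half-site TGACG, searched on both strands.
Sst: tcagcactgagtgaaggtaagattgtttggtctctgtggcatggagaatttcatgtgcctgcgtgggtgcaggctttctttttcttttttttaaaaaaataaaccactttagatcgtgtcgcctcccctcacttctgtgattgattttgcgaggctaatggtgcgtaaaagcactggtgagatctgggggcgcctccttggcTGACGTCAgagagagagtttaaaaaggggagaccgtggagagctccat
Npy: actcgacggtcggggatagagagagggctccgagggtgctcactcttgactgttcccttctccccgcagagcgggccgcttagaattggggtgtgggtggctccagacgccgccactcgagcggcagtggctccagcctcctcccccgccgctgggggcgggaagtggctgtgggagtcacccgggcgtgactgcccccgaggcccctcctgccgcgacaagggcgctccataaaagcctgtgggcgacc
Cort: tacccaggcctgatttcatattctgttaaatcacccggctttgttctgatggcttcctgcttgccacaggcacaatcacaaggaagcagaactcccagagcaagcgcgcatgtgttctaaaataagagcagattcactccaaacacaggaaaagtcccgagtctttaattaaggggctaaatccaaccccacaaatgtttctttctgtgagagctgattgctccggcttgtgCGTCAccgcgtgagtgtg
The Sst window held TGACGTCA from 48 bases before the start, and this palindrome contains the half-site on both strands. The Cort window held only the half-site, on the other strand, with its first printed base 18 bases before the start. The Npy window held neither. Of 32851 promoter windows of this length, 1.55% held TGACGTCA and 17.8% held TGACG, so a half-site alone was common. These matches are letters in a window and not measured binding.

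The selected cells numbered 31, 14, 11 and 19 in libraries 1 to 4. They made up 4.30% of GABAergic neurons in library 1 (exact Clopper-Pearson 95% interval 2.94 to 6.05), 2.97% in library 2 (1.63 to 4.94), 2.74% in library 3 (1.38 to 4.86) and 2.75% in library 4 (1.67 to 4.27), or 3.19% ± 0.746 (SD, n = 4). Library 1 was above the others, and its interval overlapped theirs. The intervals cover counting error only. The selected cells held a median of 3697 UMIs against 3340 in the other 2208 GABAergic neurons, and their sums per library ran from 32388 to 172589 UMIs. Library 1 held the deepest selected cells, with a median of 5748 UMIs against 2712 to 3104 in the others. A doublet caller marked 62 of the 4239 kept barcodes and 0 of the 75 selected cells. None of the kept barcodes was shared between kept sets of different libraries, and 1 selected cell had a barcode sequence that occurred among the barcodes left out of another library.

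Markers of other cell types were compared by their summed levels. The 8 oligodendrocyte markers summed to 91.3 to 336 CPM (UMI counts scaled to the same total in every sum) per library in the selected cells, 258 to 1317 in other GABAergic neurons and 75435 to 91418 in non-neuronal barcodes. Summed astrocyte markers ran from 60.9 to 213 CPM against 154 to 254 in the other GABAergic neurons, with 5 of 7 at 0. Oligodendrocyte precursor markers ran from 0 to 17.4 CPM against 5.51 to 43.2 (4 of 6 at 0) and microglia markers from 11.6 to 30.9 CPM against 14.9 to 20.2 (4 of 6 at 0). For microglia and the next 3 lists the highest sum was above the range of the other GABAergic neurons, and the part of these markers in the results was not tested. Endothelial and mural markers (5 of 6 at 0) ran from 0 to 71.0 CPM, highest in library 2, against 4.96 to 17.6 CPM, and glutamatergic markers (3 of 5 at 0) were at 166 CPM in library 2 against 59.1 to 106 CPM and at 0 in libraries 1, 3 and 4. The cholinergic markers counted, Chat and Slc5a7, reached 92.6 CPM in library 3 against 5.18 to 34.3 CPM. Chat was at 0, so this sum was all Slc5a7. Their part in the results below was not tested.

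Sst was measured in the selected cells at 8894, 8542, 3890 and 17316 CPM in libraries 1 to 4, and Npy at 9723, 9701, 3396 and 15140 CPM. Library 4 was highest and library 3 lowest for both peptides. In the other GABAergic neurons Sst ran from 213 to 1214 CPM and Npy from 111 to 451 CPM, without overlap with the selected cells, as the selection requires. The 75 selected cells, 3.29% of the GABAergic neurons, held 38.3% of all Sst UMIs and 59.0% of all Npy UMIs of that class. Nearly all of the rest lay in 137 other GABAergic neurons that also had at least 4 UMIs of Sst and Npy but none of Igfbp4, Crhbp or Maf, called Sst/Npy-rich neurons here, which held 59.5% of the Sst and 38.8% of the Npy UMIs. At the selection threshold, 5 selected cells had exactly 4 UMIs of Sst and Npy, and 3 GABAergic neurons with a UMI of Igfbp4, Crhbp or Maf had 3 and stayed out.

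Both peptides were found together in most of the selected cells. Of the 75 cells, 48 held UMIs of both, 19 of Npy only and 8 of Sst only. The share of a cell's UMIs taken by Sst and Npy ran from 0.0501% to 13.2%, with a median of 0.675%. Peptide UMIs also occurred outside neurons: 2.11% of the 1750 non-neuronal barcodes had a Sst UMI and 1.09% a Npy UMI, at a median depth of 1149 UMIs. At a fixed depth of 1000 UMIs, reached by 71 selected cells, 1939 other GABAergic neurons and 1047 non-neuronal barcodes, 65.8% ± 5.18 of the selected cells held a Sst UMI (SD, n = 4 libraries; 73.3% ± 6.79 without thinning) and 81.0% ± 4.93 a Npy UMI (90.1% ± 7.23 without thinning). The same shares in non-neuronal barcodes at that depth were 1.38% and 0.834%.

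**Figure D1:**
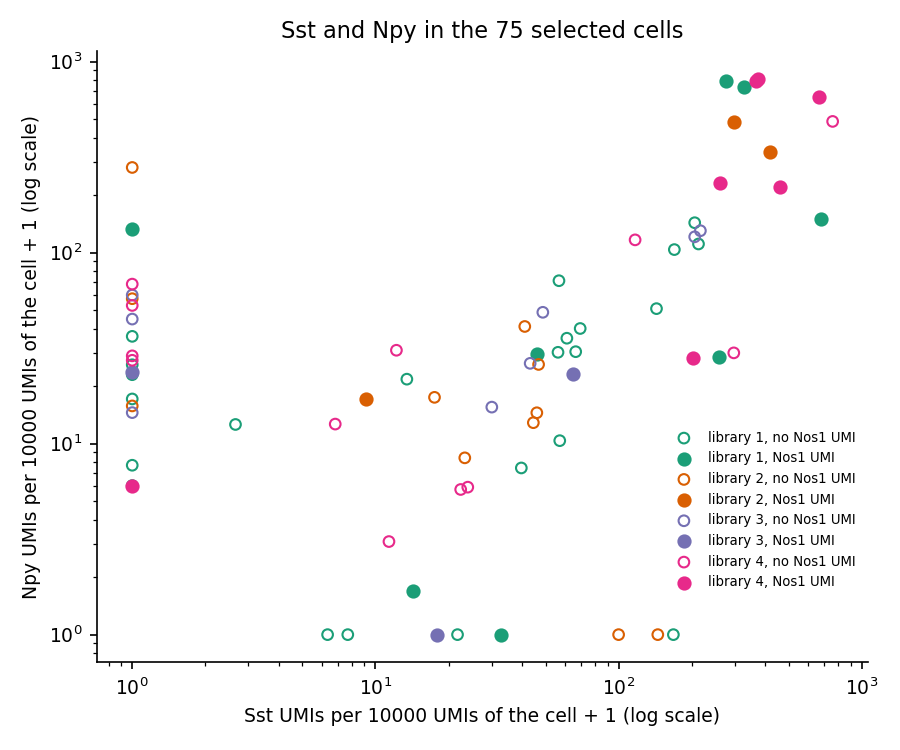
Each point is 1 of the 75 selected cells, placed by its Sst (x axis) and Npy (y axis) UMIs, scaled to the depth of the cell as the axes state, on log axes. Colours give the library and filled points have a Nos1 UMI. Cells at the left edge have no Sst UMI and cells at the bottom no Npy UMI. The cells at the upper right, high in both peptides, come from libraries 1, 2 and 4, and 10 of the 11 with over 4% of their UMIs from the 2 genes have a Nos1 UMI.

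The 3 genes of the second condition marked the selected cells unequally. Crhbp, which encodes the corticotropin-releasing hormone binding protein, had a UMI in 56 of 75 cells, Igfbp4, an insulin-like growth factor binding protein, in 33 and Maf, a transcription factor of maturing interneurons, in 21. A single one of the 3 was found in 46 cells, 2 of them in 23 and all 3 in 6. Crhbp was measured at 458, 804, 618 and 548 CPM in the selected cells of libraries 1 to 4, against 9.37 to 32.2 CPM in other GABAergic neurons. Igfbp4 was at 162, 781, 525 and 244 CPM against 33.5 to 86.4 CPM. Maf was at 116, 260, 123 and 45.6 CPM against 3.31 to 15.1 CPM. Cox6a2, a cytochrome c oxidase subunit of the heart and muscle type, was at 40.6, 355, 124 and 137 CPM against 9.92 to 22.6 CPM, in 20 of the 75 cells. Library 2 was highest for all 4 genes, and for none did the selected cells overlap the other GABAergic neurons. Maf and Cox6a2 share exonic sequence positions with a gene on the opposite strand in GENCODE vM21 (Gm15655 and Itgad), and the strand used in counting is not given in the sources used here, so their counts are uncertain to that extent.

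The main comparison asked which other genes set the selected cells apart from the rest of the GABAergic neurons. It used UMI counts summed per library and class, edgeR's quasi-likelihood test with the library as a block, and Benjamini-Hochberg adjustment over all genes. Of 8663 genes counted, 114 were higher (1.32%) and 156 lower (1.8%) in the selected cells at an adjusted p under 0.05, 3.12% in all, and 248 of these 270 moved the same way in all 4 libraries. The median fitted log2 difference over all genes was -0.10. DESeq2, run as an alternative, called 126 genes, of which 79 were higher and 47 lower, so the split between directions depends on the tool. Leaving out library 1 gave 163 genes and leaving out library 4 gave 172.

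Transcription factors of medial ganglionic eminence interneurons were higher. Of 14 listed factors tested, 9 rose and 0 fell, with a median log2 difference of 1.84, and the other 5 did not pass the test. Over all genes 1.32% were higher and 1.8% lower. Sox6, which acts after Lhx6 in these interneurons, was measured at 86.9, 71.0, 185 and 259 CPM in libraries 1 to 4 against 12.8, 6.61, 32.9 and 4.15 CPM in other GABAergic neurons. The selected cells were above the others in each library and the ranges did not overlap (log2 difference 3.45, SE 0.41, adjusted p = 1.29e-14). Lhx6, a LIM homeobox factor of this lineage, was at 156, 284, 154 and 350 CPM against 30.1, 43.6, 53.5 and 46.1 CPM (2.42, SE 0.29, adjusted p = 3.31e-14). Again the ranges did not overlap. Nkx2-1, the factor that specifies the lineage, also rose (log2 difference 2.26, adjusted p = 0.000368), as did Zeb2 (2.54), Etv1 (2.41), Satb1 (2.02), Tox (1.74) and Dlx1 (0.91). Satb1 was higher in 3 of the 4 libraries and the others named here in all 4. Sox6, Zeb2 and Etv1 are also expressed outside neurons, at means of 50.2, 654 and 158 CPM in the non-neuronal barcodes, and the part of RNA from such cells in these rises was not tested. An alternative chosen after seeing the data asked for at least 1% Sst and Npy. It kept 12, 4, 2 and 9 selected cells in libraries 1 to 4 and moved the rest of them to the comparison cells. The log2 difference of Zeb2 was then 0.22 and that of Etv1 1.03, neither past the test.

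Genes of interneuron subtypes rose as well. Of 14 listed genes tested, 10 rose and 0 fell, with a median log2 difference of 1.61, beside 1.32% higher and 1.8% lower over all genes. Nos1 was measured at 295, 260, 185 and 928 CPM in libraries 1 to 4 against 34.1, 26.5, 65.8 and 47.7 CPM. Library 4 stood highest, and all 4 selected sums lay above every sum of other GABAergic neurons (log2 difference 3.24, SE 0.25, adjusted p = 3.13e-36). This rise rests largely on 11 of the 75 cells, described below, which carried 109 of the 129 Nos1 UMIs, and the other 64 cells were at 76.3 CPM. Cort, in 7 of the 75 selected cells with 21 UMIs in all, was at 86.9, 23.7, 30.9 and 60.9 CPM against 1.42, 0, 4.80 and 1.04 CPM (5.17, SE 0.65, adjusted p = 5.75e-13). Its selected sums were above all others, but a single cell of library 1 held 12 of the 21 UMIs and libraries 2 and 3 had 1 UMI each. Without library 1 the Cort difference was 4.43 (adjusted p = 0.00101), and at 800 genes per barcode or a mitochondrial limit of 5% Cort had too few counts to be fitted. Nxph1, which encodes the secreted neurexin ligand neurexophilin, was at 261, 876, 494 and 274 CPM against 50.6, 69.5, 71.3 and 64.8 CPM (2.65, SE 0.23, adjusted p = 1.79e-28). Calb1, the calcium-binding protein calbindin, was the most even of these genes, at 823, 923, 926 and 1004 CPM against 362, 288, 337 and 274 CPM (1.45, SE 0.15, adjusted p = 1.81e-20). In cells with at least 1% Sst and Npy the Calb1 difference was -0.07. The remaining 6 were Moxd1 (2.69), Lypd6 (2.39), Chodl (1.62), the neuregulin receptor Erbb4 (1.61), the guanylyl cyclase subunit Gucy1a3 (1.2) and Grin3a (0.90). Pvalb and Vip, which mark other interneuron classes, had 0 UMIs in the selected cells: 0 of 75 cells allows a share of cells with a UMI of up to 4.00%, and both were too sparse to be tested.

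The other genes with the largest rises were of several kinds. Sfrp1, a secreted inhibitor of Wnt signalling, was at 301, 189, 278 and 167 CPM against 10.2, 25.4, 19.9 and 14.5 CPM (log2 difference 3.92, SE 0.31, adjusted p = 8.59e-34). Tcf4, a basic helix-loop-helix factor, was at 1188, 1183, 1698 and 1217 CPM against 140, 117, 337 and 235 CPM (2.70, SE 0.14, adjusted p = 1.15e-77). Neither gene overlapped between the classes, and Tcf4 was found in 66 of the 75 selected cells. It is not restricted to neurons, and its mean was 876 CPM in the non-neuronal barcodes. Nppc, the precursor of C-type natriuretic peptide, was at 162, 47.3, 154 and 91.3 CPM against 12.1 to 21.3 CPM (2.99, SE 0.40). Pcdh18, a protocadherin, rose by a log2 difference of 2.84 (SE 0.34) and Cdca7 by 2.80 (SE 0.62). Il1rapl2 rose by 2.74 (SE 0.60), with library 2 at 189 CPM against 23.2 to 30.9 CPM in the other selected sums. Without library 2 its log2 difference was 1.71 (adjusted p = 0.440), and without library 1 that of Cdca7 was 2.50 (adjusted p = 0.12).

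**Figure D2:**
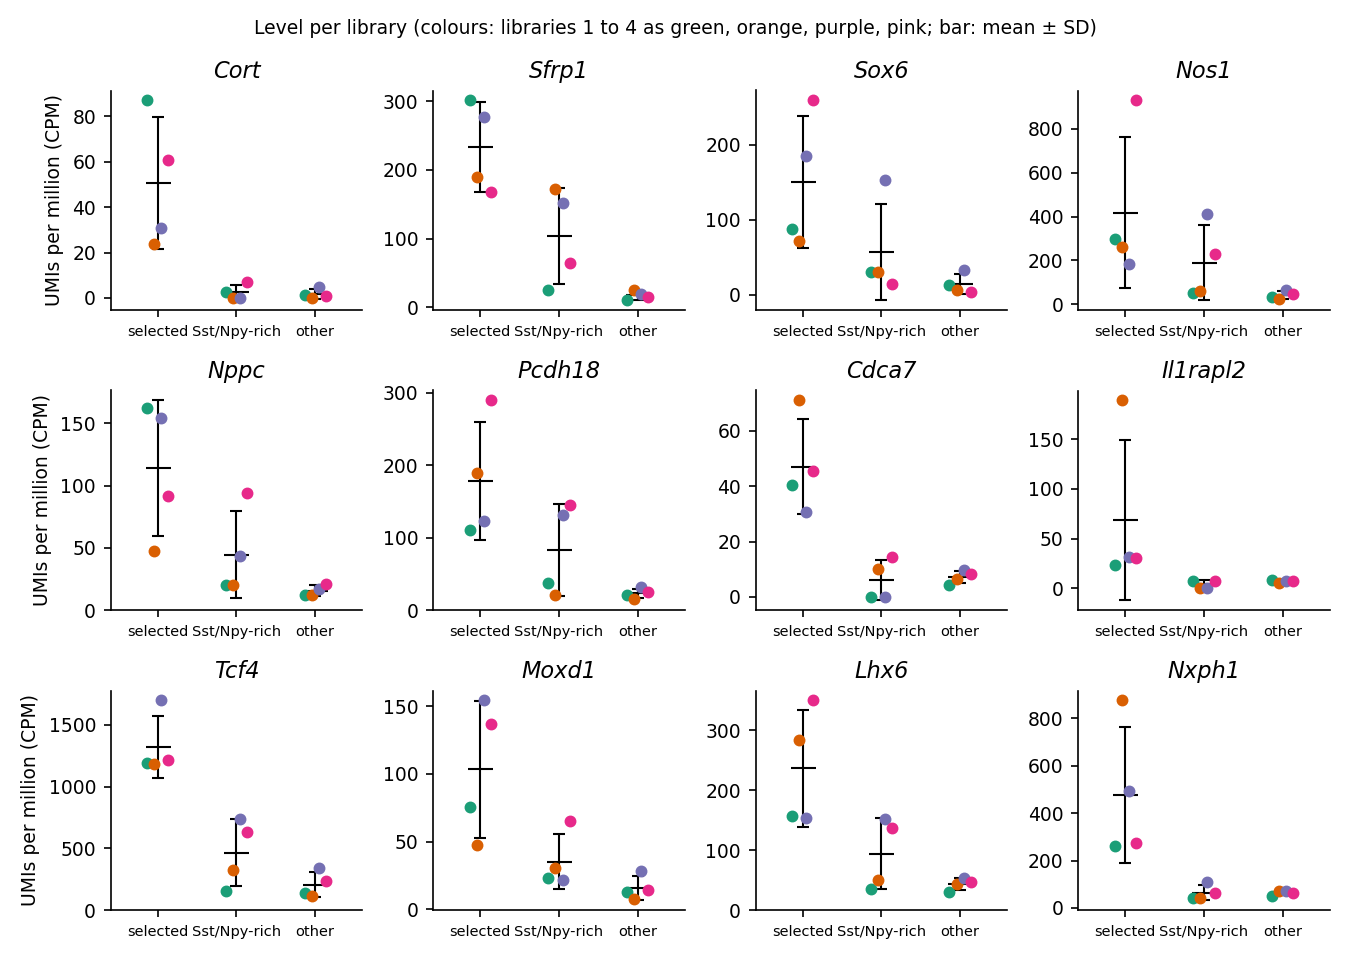
Level of 12 genes in CPM (linear axes) in the selected cells, in the Sst/Npy-rich neurons without Igfbp4, Crhbp or Maf, and in all other GABAergic neurons, which include the Sst/Npy-rich ones. Points are the 4 libraries and bars the mean ± SD, which can reach below 0. In each gene every selected sum lies above every sum of the other GABAergic neurons, while the Sst/Npy-rich neurons often lie between.

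At 1000 UMIs per cell the share of cells with a UMI was compared for 15 of these genes and Pnoc, so that cells were compared at equal depth. The 15 genes had been chosen as higher in the same libraries, so these shares are a description and no test is given for them. Lhx6 was detected in 18.1%, 18.5%, 13.2% and 31.9% of them in libraries 1 to 4, against 3.80% ± 0.711 of other GABAergic neurons and 0.154% of non-neuronal barcodes. Without thinning the Lhx6 shares were 49.8% ± 13.9 and 10.5% ± 1.84. Nos1 was detected in 15.9% ± 6.87 of the selected cells against 3.30% ± 1.03, and in 27.8% ± 6.50 against 9.81% ± 3.26 without thinning.

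Factors of other forebrain GABAergic lineages were lower. Of 12 listed factors tested, mostly of the lateral ganglionic eminence, 0 rose and 7 fell, with a median log2 difference of -2.97, or -1.60 with the 4 genes at 0 set to their bound. Meis2, a TALE homeobox factor of lateral ganglionic eminence neurons, was at 40.6, 23.7, 0 and 45.6 CPM in libraries 1 to 4 of the selected cells, in 3 cells, against 361, 472, 457 and 496 CPM (log2 difference -3.62, SE 0.30, adjusted p = 1.19e-29). Every selected sum was far below every other sum. Isl1, a LIM homeobox factor of striatal and septal neurons, and Foxp2, a forkhead factor, had 0 UMIs in the selected cells. With a floor of 3 UMIs over the group, 9.59 CPM, the bound against the other GABAergic neurons was at least 8.50-fold lower for Isl1. For Foxp2 it was at least 7.05-fold lower. Zfp503 and Ebf1, also at 0, had bounds of at least 2.88-fold and 2.54-fold. These bounds take UMIs as independent and may be too large where few of the other neurons hold the gene. Six3 had 1 UMI in the selected cells against 89.5 ± 24.9 CPM (SD, n = 4) in the others (-4.75, SE 0.79, adjusted p = 3.24e-07), and Pbx3 had 4 (-2.32, SE 0.62, adjusted p = 0.00902). Six3 overlaps its antisense gene Six3os1. Among the 6 spiny projection neuron genes tested, 0 rose and 2 fell, among them the phosphoprotein gene Ppp1r1b (-1.68, adjusted p = 0.0114), with a list median of -0.74. Over all genes 1.8% were lower, the share beside which each count of falls in this paragraph stands. Ppp1r1b lost its call without library 4 (-1.13, adjusted p = 0.435), with DESeq2 (adjusted p = 0.185) and without the library block (adjusted p = 0.110). Of the 8 caudal ganglionic eminence genes tested, 0 rose and only Lamp5 fell (-1.38, SE 0.31, adjusted p = 0.000631), and the list median was -0.47. The Lamp5 call was lost with DESeq2 (adjusted p = 0.102), and also without the library block, at a mitochondrial limit of 5%, at 1000 UMIs per cell and in cells with at least 1% Sst and Npy.

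The listed neuropeptides, which did not include Sst, Npy, Cort or Nppc, were mostly lower. Nppc rose, as given above. Of 11 tested, 0 rose and 9 fell, with a median log2 difference of -2.31, beside 1.32% higher and 1.8% lower over all genes. The tachykinin gene Tac2 had 2 UMIs in the selected cells against 445, 396, 174 and 402 CPM in the other GABAergic neurons (-5.98, SE 0.46, adjusted p = 1.38e-35). Neurotensin (Nts) had 1 UMI against 319, 383, 186 and 417 CPM (-6.69, SE 0.54, adjusted p = 1.43e-32). Both were thus near 0 in cells that spent up to 13.2% of their UMIs on Sst and Npy. Crh, the corticotropin-releasing hormone whose binding protein chose many of the cells, was at 17.4, 0, 185 and 0 CPM against 232, 279, 340 and 283 CPM (-3.20, SE 0.35, adjusted p = 2.16e-17), with library 3 the highest of the selected sums. Penk, which encodes the enkephalins, was at 278, 23.7, 124 and 320 CPM against 586, 718, 589 and 949 CPM (-1.67, SE 0.18, adjusted p = 3.77e-17). Penk overlaps A830012C17Rik on the opposite strand. Vasopressin (Avp), counted among the 9, had 0 UMIs, and 24 of the 2208 other GABAergic neurons held all of its 961 UMIs there. Its bound of at least 11.5-fold takes UMIs as independent. With so few cells holding it, absence from the 75 selected cells does not establish a fall. The Avp call was lost with DESeq2 (-4.80, adjusted p = 0.0950). Gal (-3.88), Pdyn (-2.31), Cck (-2.22) and Tac1 (-0.92) also fell. Cartpt did not pass the test and was uneven, at 1269, 23.7, 0 and 274 CPM in the selected cells against 561, 510, 516 and 352 CPM (-0.06, SE 0.17).

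Pnoc, the prepronociceptin gene in the title of the study, was not distinguished between the classes. It was at 185, 189, 30.9 and 198 CPM in the selected cells of libraries 1 to 4 and at 166, 150, 132 and 136 CPM in the other GABAergic neurons. Library 3, with 30.9 CPM, stood below the others and went the opposite way. The fitted log2 difference was 0.11 (SE 0.25, adjusted p = 0.956), and flipping the signs of the within-library differences in an exact permutation test gave a two-sided p of 1.0 (n = 4). A Pnoc UMI was found in 18 of the 75 cells. Of these, 2 cells held 22 Pnoc UMIs, 16 in a cell of library 1 and 6 in a cell of library 2. The other 16 cells held 32, so the sums of these libraries rest in part on single cells. Oprl1, the nociceptin receptor gene, was at 17.4, 71.0, 0 and 91.3 CPM against 52.9, 61.2, 61.0 and 74.6 CPM (-0.65, SE 0.46, adjusted p = 0.706), with overlapping ranges.

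The remaining falls named here were genes with 0 UMIs in the selected cells, for which the bound is at least 5.78-fold for Slc17a8, the third vesicular glutamate transporter, at least 5.42-fold for A230065H16Rik and at least 4.89-fold for Rxrg, a retinoid receptor. For Trhr, the thyrotropin-releasing hormone receptor, it is at least 3.58-fold, for the LIM-only factor Lmo1 at least 3.13-fold and for C1ql3 at least 3.06-fold. All 4 sums of the other GABAergic neurons were above 0 for each of these 6 genes. Their bounds, like that of Avp, take UMIs as independent and may be too large where few of those neurons hold the gene. In total 21 of the 156 lower genes had no UMI in the selected cells. Without library 1, which holds most of the selected cells' UMIs, the adjusted p was 0.0741 for Rxrg, 0.276 for Trhr, 0.306 for Lmo1 and 0.267 for C1ql3, so these calls were lost, and that of C1ql3 also without library 4 (adjusted p = 0.0816).

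**Figure D3:**
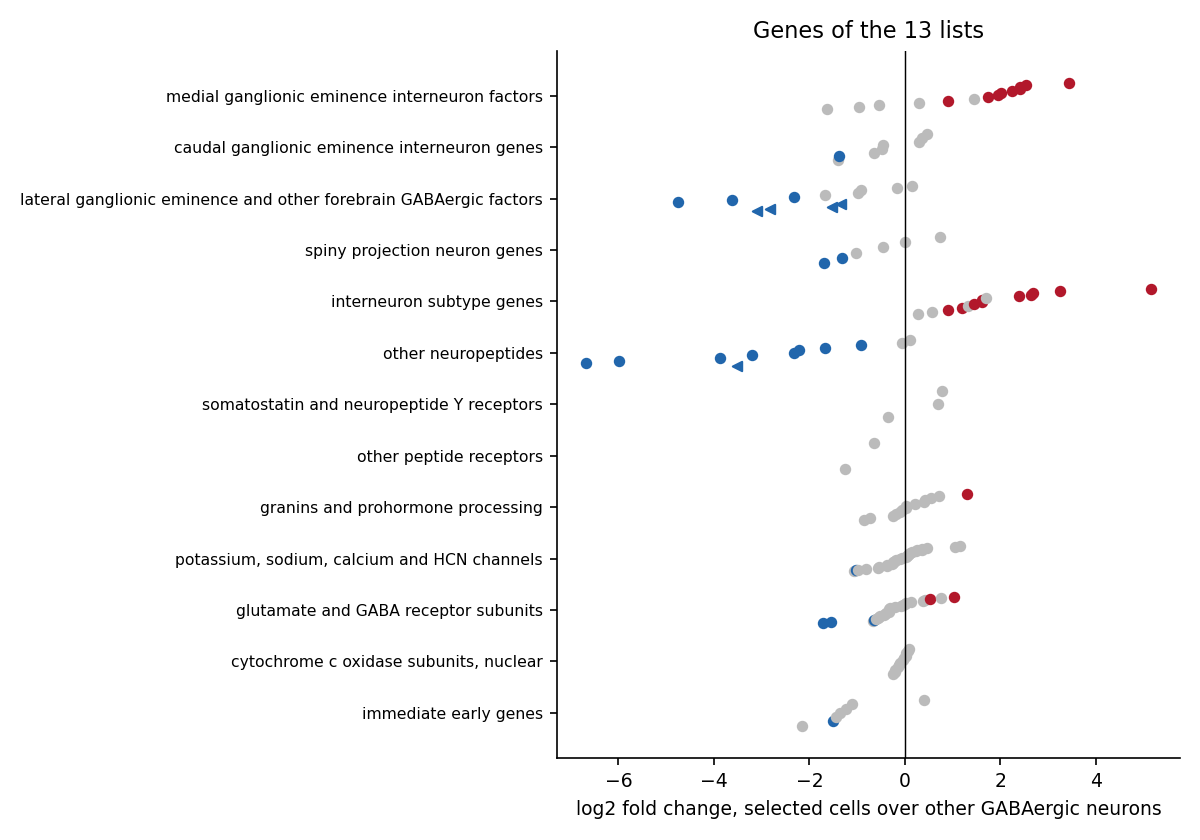
Fitted log2 difference between the selected cells and the other GABAergic neurons for each tested gene of 13 lists. Red and blue points are genes higher or lower at an adjusted p under 0.05, and grey points are genes that did not pass. Triangles are genes with 0 UMIs in the selected cells, drawn at the bound from a floor of 3 UMIs. With UMIs taken as independent, the true value lies there or further left. Red points dominate the medial ganglionic eminence and interneuron subtype lists and blue points the lateral ganglionic eminence and neuropeptide lists, while cytochrome c oxidase subunits lie close to 0.

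For genes of peptide handling, excitability and energy supply, the counts below stand beside 3.12% called over all genes and show nothing particular to these lists. Of the 14 granin and prohormone-processing genes, only Pam, the enzyme that amidates peptides such as neuropeptide Y, passed the test, at 701.1, 1254, 494 and 715 CPM against 287, 355, 298 and 268 CPM (1.31, SE 0.15, adjusted p = 1.81e-15). The list median was 0.03. Of 28 potassium, sodium, calcium and HCN channel genes, 0 rose and 1 fell, Cacna2d2 (-1.02, SE 0.29, adjusted p = 0.0209). Its call was lost without library 1 (-1.08), 2 (-0.97) or 4 (-0.91). It was also lost with DESeq2 (adjusted p = 0.284) and without the library block (adjusted p = 0.0886). The list median was -0.08. None of the 12 nuclear cytochrome c oxidase genes tested passed, and their median was -0.07. Cox6a2 was not among them. Cox4i1, the most abundant of them, was at 1831, 1372, 988 and 1263 CPM against 1586, 1350, 871 and 1339 CPM (0.02, SE 0.13), with a sign that depends on the setting, and Ndufa4 differed by 0.07 (SE 0.13). Cox4i1 overlaps Emc8 on the opposite strand.

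Receptor genes changed in both directions. Of 26 glutamate and GABA receptor subunit genes tested, 2 rose and 3 fell, with a median of -0.32. Over all genes 3.12% were called, the share beside which each count in this paragraph stands. The AMPA receptor subunit Gria2 was at 1083, 1183, 1112 and 1278 CPM against 1561, 1615, 1980 and 1851 CPM (-0.64, SE 0.13, adjusted p = 5.66e-05), below the others in every library. Gria1 rose by 0.54 (SE 0.15, adjusted p = 0.0111) and Gria4 by 1.04 (SE 0.23, adjusted p = 0.00057), the latter in 3 of 4 libraries, since library 4 had 91.3 CPM against 108 CPM. The GABA receptor subunits Gabra5 (-1.54, adjusted p = 0.000459) and Gabrg3 (-1.71, adjusted p = 0.0146) fell, a call lost for Gabra5 with DESeq2 (adjusted p = 0.0525), at 1000 UMIs per cell and in cells with at least 1% Sst and Npy. The Gria1 call was lost without library 1 (0.49) or 4 (0.50) and the Gria4 call without library 2 (0.82). Both differences turned negative in cells with at least 1% Sst and Npy (-0.20 for Gria1 and -0.41 for Gria4). Of the 3 Sst and Npy receptor genes tested none passed: Npy2r was at 133, 189, 92.6 and 122 CPM against 75.02, 89.9, 104 and 70.5 CPM (0.69, SE 0.30, adjusted p = 0.288), and Sstr1 differed by 0.78 (SE 0.49, adjusted p = 0.642). Neither of the 2 other peptide receptors tested passed, and Tacr3, too sparse to test, had 8 UMIs, all in library 1. Of 7 immediate early genes, which respond to activity and to dissociation, only Egr1 passed and fell (-1.50, SE 0.34, adjusted p = 0.000598). The Egr1 call was lost without library 4 (-1.16, adjusted p = 0.104) and with DESeq2 (-1.44, adjusted p = 0.151). The list sum was 247 to 396 CPM in the selected cells, 351 to 855 in other GABAergic neurons and 1950 to 3117 in non-neuronal barcodes. The part of dissociation in this was not tested.

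The second comparison asked what the condition on Igfbp4, Crhbp or Maf added, by setting the 75 selected cells against the 137 Sst/Npy-rich neurons, 63, 24, 12 and 38 in libraries 1 to 4, with a median of 4358 UMIs. It uses the same sums of selected cells as the main comparison, so the results are not independent of it. Of 1891 genes with enough counts, 34 were higher (1.8%) and 32 lower (1.69%), 3.49% in all, and 52 of these 66 moved the same way in all 4 libraries. DESeq2 called 10, of which 6 were higher and 4 lower, and leaving out library 1 or 2 gave 32 or 34 genes. Nxph1 was at 42.9, 40.7, 109 and 65.0 CPM in the Sst/Npy-rich neurons, below every selected sum (log2 difference 2.79, SE 0.30, adjusted p = 4.04e-08). Gpr83, a neuropeptide receptor gene, was at 243, 757, 957 and 274 CPM in the selected cells against 47.9, 102, 43.5 and 130 CPM (2.37, SE 0.29, adjusted p = 4.46e-07). Neither gene overlapped between the classes. Rab3b, a small GTPase of secretory vesicles, was at 516, 615, 371 and 472 CPM against 98.4, 173, 174 and 260 CPM (1.69, SE 0.24, adjusted p = 4.68e-06), and it overlaps 8030443G20Rik. Tcf4 rose by 1.80 (SE 0.20, adjusted p = 7.96e-08) and Sfrp1 by 1.82 (SE 0.38, adjusted p = 0.00232). Lhx6 was at 35.3, 50.8, 152 and 137 CPM in the Sst/Npy-rich neurons (1.62, SE 0.34, adjusted p = 0.00201). These sums were below the selected cells of the same library, but in library 3 the classes were nearly equal. The Lhx6 call was lost without library 2 (1.46, adjusted p = 0.061).

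The largest falls in the second comparison were Nrgn, Meis2, Arpp21, Lypd1 and Tac1. Nrgn, the calmodulin-binding protein neurogranin, was at 29.0, 23.7, 124 and 60.9 CPM in the selected cells against 689, 488, 283 and 592 CPM in the Sst/Npy-rich neurons (-3.66, SE 0.33, adjusted p = 4.58e-10). Meis2 was at 356, 325, 152 and 325 CPM in the latter (-3.18, SE 0.36, adjusted p = 7.96e-08). For both genes the Sst/Npy-rich neurons lay above every selected sum. Nrgn averaged 513 ± 174 CPM in them (SD, n = 4) and 520 ± 46.9 CPM in all other GABAergic neurons. Arpp21 fell by 2.46 on the log2 scale (SE 0.29), Lypd1 by 2.22 (SE 0.31) and Tac1 by 2.07 (SE 0.27). Tac1 varied from 123 to 1069 CPM among the Sst/Npy-rich sums. Pnoc was at 225, 163, 392 and 310 CPM in them and did not pass the test (-0.57, SE 0.29, adjusted p = 0.416). Over all genes of this comparison 1.8% were higher and 1.69% lower. Of the medial ganglionic eminence factors, 2 had enough counts and 1 of them, Lhx6, rose. Of the 3 caudal ganglionic eminence genes with enough counts, Calb2 rose and Lamp5 fell. Of the 8 interneuron subtype genes, 5 rose (Nos1, Calb1, Gucy1a3, Erbb4 and Nxph1), with a list median of 0.95 against 0.00 over all genes.

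The selected cells were also described along their level of Sst and Npy. Ordered by the share of their UMIs from the 2 genes, the highest 25 cells held 1.33% to 13.2%, the middle 25 held 0.332% to 1.26% and the lowest 25 held 0.0501% to 0.330%. These are ranges of a continuous share and not cell types, they were set after the values were seen, and no test was made. The highest 25 cells were the shallowest, with a median of 2596 UMIs against 3416 and 4827, and came from libraries 1 to 4 in numbers of 10, 4, 2 and 9. Nos1 had a UMI in 13 of the highest 25 cells, 2 of the middle and 6 of the lowest, at 1375, 34.4 and 64.0 CPM. Sfrp1 had a UMI in 16, 5 and 5 cells and Chodl in 12, 7 and 5. Gpr83 had a UMI in 6, 18 and 14 cells. Igfbp4, which like the ordering itself was part of the selection, had a UMI in 5, 16 and 12 cells. Calb1 was at 282, 1319 and 981 CPM. Tcf4 was even, with 22 cells in each range, and Lhx6 had a UMI in 13, 11 and 15 cells.

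**Figure D4:**
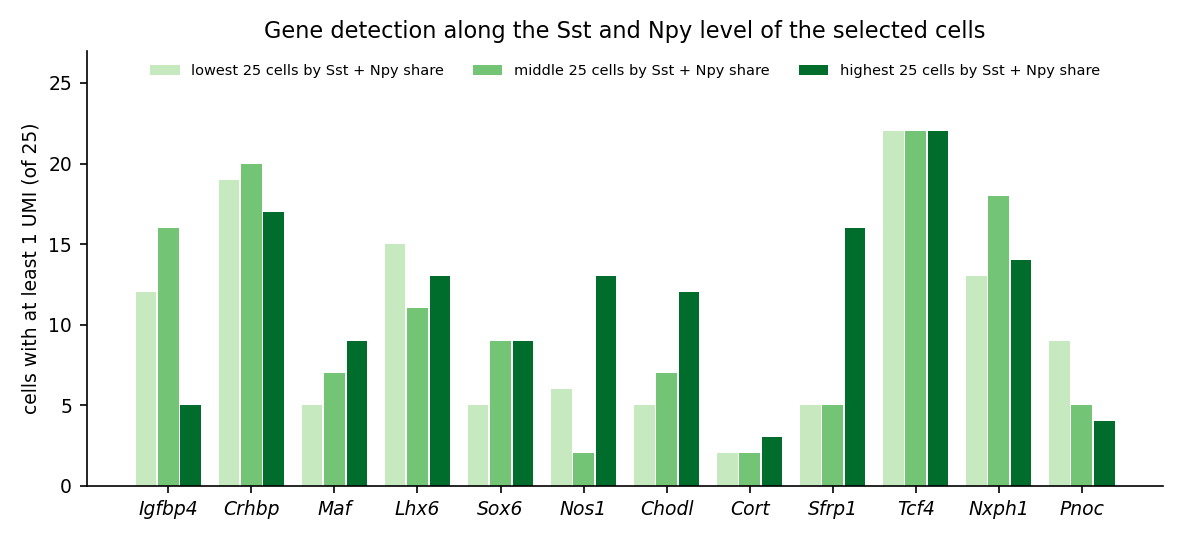
Number of cells with at least 1 UMI of 12 genes among the lowest, middle and highest 25 selected cells, ordered by the share of their UMIs from Sst and Npy. Nos1, Chodl and Sfrp1 are found most often in the highest range, Igfbp4, a gene of the selection, least often there, and Tcf4 in 22 cells of each.

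At the upper end, 11 cells held between 4.91% and 13.2% of their UMIs in Sst and Npy, and the next cell below held 3.47%. They came from libraries 1, 2 and 4 (3, 2 and 6 cells) and each held 41 to 390 Sst UMIs and 86 to 770 Npy UMIs. A Nos1 UMI was found in 10 of the 11, a Crhbp UMI in 9, a Chodl UMI in 9 and an Igfbp4 UMI in 1. They carried 109 of the 129 Nos1 UMIs of the selected cells, at 2143 CPM against 76.3 CPM in the other 64, of which 11 had a Nos1 UMI. Their median depth of 3796 UMIs was close to that of the other 64, at 3695. Library 3, without such a cell, had the lowest Nos1, Sst and Npy sums, and library 4, with 6, the highest.

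The 30 cells with more Npy than Sst UMIs and the 45 with at least as many Sst UMIs were too few per library to test. Gpr83 was at 326, 667, 1526 and 610 CPM in the former in libraries 1 to 4 and at 190, 824, 537 and 26.4 CPM in the latter, higher in the former in 3 libraries and lower in library 2. Igfbp4, a gene of the selection, had the same pattern, at 311, 667, 1090 and 502 CPM against 66.6, 865, 107 and 52.8 CPM. The 19 cells without a Sst UMI had an Igfbp4 UMI in 15, a Chodl UMI in 2 and a Pnoc UMI in 2. Of the 8 cells without a Npy UMI, which came from libraries 1 to 3 (5, 2 and 1), 7 held a Pnoc UMI, against 9 of the 48 cells with both peptides. Those 8 cells had no UMI of Sox6, Sfrp1, Cox6a2, Moxd1 or Cort, although 0 of 8 cells allows a share of up to 37.5%, and they were deeper than the 48, with medians of 4880.5 and 3645.5 UMIs. These genes were chosen after their values were seen.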

How the data were processed

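UMI counts per gene and barcode of 4 Drop-seq libraries (3' tags, 3600, 1800, 2400 and 2400 barcodes) were used as the authors deposited them, as raw whole-number counts. The submitters' processing notes name bcl2fastq 2.18.0.12, STAR 2.4.2a, Picard 2.2.4 and the builds mm10 and GRCm38; the annotation, counting strand and choice of barcodes are not given in the sources used here. Of 20136 gene names, 18830 were found in GENCODE vM21.

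The selected cells, the gene lists and the tests were chosen with earlier results of these data known. Counts were summed per library and class (selected, other GABAergic, Sst/Npy-rich), since cells are not replicates. Both sums of a library share mice and library, so the library was a block. Differences were tested with edgeR 4.0.16 (R 4.3.3; glmQLFit, glmQLFTest, TMM scaling, filterByExpr) and Benjamini-Hochberg adjustment over all genes fitted, with a threshold of 0.05; the 13 genes of the selection rule, mitochondrial genes and Cox6a2 stayed in the fit and out of the counts. A log2 difference is the fitted one, selected minus comparison cells; levels are CPM of the summed counts, with mean ± SD over libraries. The script was tested on simulated counts. With the library as a block, p-values and SEs rest on the differences within the 4 pools. edgeR also shares information on spread between genes, and the SE is the log2 difference over the root of the F statistic. A small SE or p-value therefore does not show that the 4 libraries were alike. For Pnoc the within-library differences in log2(CPM + 1) had an SD of 1.21.

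Genes at 0 UMIs in the selected cells were given a bound from 3 UMIs over the group, which takes UMIs as independent. Shares of cells were also computed at 1000 UMIs per cell, from the chance that a draw of that size includes the gene. Scrublet, run on each library through scanpy 1.11.5 with an expected rate of 0.05, marked doublets, which stayed in the main analysis. Named genes were those of the rule, Pnoc and Oprl1, the 10 largest rises and falls that passed, held at least 20 UMIs and moved alike in every library (5 each in the second comparison), and up to 4 passing genes per list; others named were chosen after their values were seen, and some genes that the rule names are not reported here. Alternatives were DESeq2 1.42.0, its size factors, no filter, no block, other barcode, peptide and comparison cell limits, matched or thinned depth, and leaving out each library. Promoter windows are RefSeq's, on GRCm38.p6. No protein sequences were used here.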

Additional observations from a re-analysis of the deposited data

Results flagged for a closer look

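Of 29 sets of 4 library values examined, 3 had 1 library far from the others, where chance flags about 1 in 20 sets. The selected cells were 4.30% of GABAergic neurons in library 1 against 2.74% to 2.97% in the other 3. The median depth of the selected cells was 5748 UMIs in library 1 against 2712 to 3103.5 in the others. The log2 difference in Pnoc between the selected cells and the other GABAergic neurons, on the log2(CPM + 1) scale, was -2.06 in library 3 against 0.16 to 0.53 in the others, and rests on 1 selected cell with a Pnoc UMI in that library.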

How the results depend on the processing

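Of 784 log2 differences of the 46 named genes across the alternatives, 70 lost the call, 1 gained it (Npy2r at a mitochondrial limit of 5%, 1.03), 11 changed sign and the rest kept their direction and side of the threshold. Genes with too few counts to be fitted under an alternative are not in the 784. With comparison cells matched on depth, 27 genes stayed the same and 3 lost the call. At 1000 UMIs 18 stayed the same, 9 lost the call and 2 changed sign. The rest of the 46 were not fitted there. The main count of 270 genes became 126 with DESeq2, 149 without the library block, 61 at 1000 UMIs per cell and 81 in cells with at least 1% Sst and Npy, a limit chosen after seeing the data, and 163 to 224 with 1 library left out. The second count of 66 became 10 with DESeq2, 17 without the block, 102 without the filter and 32 to 81 with 1 library left out. Pnoc changed sign at 1000 UMIs (-0.32) and at the 1% limit (-0.034), and ran from -0.033 to 0.26 with 1 library left out; it passed the test under none. The share of GABAergic neurons became 4.22% at a mitochondrial limit of 5%. At the 1% limit Calb1 (-0.070), Gria4 (-0.41), Gria1 (-0.20), Cox4i1 (-0.47) and Ndufa4 (-0.55) changed sign. Cox4i1 also did without the filter (-0.080), at 8 UMIs of Sst and Npy (-0.10), at 1000 UMIs (-0.038) and with 1 library left out (-0.099 to 0.055), and Ndufa4 without the filter (-0.029) and at 1000 UMIs (-0.070). Fewer UMIs or libraries entered the fits at 1000 UMIs, at the 1% limit and with 1 library left out. At the 1% limit 12, 4, 2 and 9 selected cells remained in libraries 1 to 4, and those below it joined the comparison cells. The cause of the other changes was not tested. The summed depth of the selected cells, 32388 UMIs in library 3, limits what can be seen for genes below about 100 CPM, and the 2 sides of the Sst and Npy split were not tested for lack of cells.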

Other observations

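Several abundant genes outside the rule for named genes also separated the selected cells, and are given here because of their counts in them. Cygb, the oxygen-binding protein cytoglobin, had 195 UMIs in the selected cells and was higher than in the other GABAergic neurons (fitted log2 difference 1.63, SE 0.17, edgeR adjusted p = 2.29e-19) and than in the Sst/Npy-rich neurons (1.12, SE 0.18, adjusted p = 6.12e-05). Lmo3, a LIM-only cofactor, rose against the other GABAergic neurons by 1.75 (SE 0.18, adjusted p = 1.36e-19) and the RNA-binding protein gene Elavl2 by 1.08 (SE 0.17, adjusted p = 8.85e-08). The neurofilament genes were lower, Nefl with a log2 difference of -2.004 (SE 0.20, adjusted p = 5.86e-20) and Nefm with -2.14 (SE 0.29, adjusted p = 2.92e-11). Zfhx3, a zinc finger homeobox factor, had 1 UMI in the selected cells and 1065 in the other GABAergic neurons (-5.19, SE 0.72, adjusted p = 1.03e-10). Each of these 6 genes moved the same way in all 4 libraries. They were chosen after their values were seen.

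Some barcodes outside the GABAergic neurons met the conditions on Sst, Npy, Igfbp4, Crhbp and Maf. They were 2 neurons without a UMI of Gad1, Gad2 or Slc32a1 and 4 non-neuronal barcodes, and were not selected or counted among the 75. The barcodes of 7 of the 75 selected cells ended in an undetermined base.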
